A study of Rattus norvegicus with 40 samples.

Results

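The genes described here are 10 members of the NF-kB system, followed in cultured neonatal rat ventricular myocytes (heart muscle cells isolated from newborn rats) under ischemia or ischemia with reperfusion. They were chosen by gene symbol: the subunits Nfkb1, Nfkb2, Rel and Rela, the inhibitors and feedback genes Nfkbia, Nfkbiz, Tnfaip3 and Birc3, and the adhesion genes Icam1 and Vcam1. Of the 10, 9 had a probe set (a group of array probes that measures 1 transcript) in the platform annotation, and no probe set carried the symbol Rel. The 9 genes had 10 of the 31042 probe sets in the table, and 9 of these, 1 for each gene, were among the 18625 that passed the filter on dim values and were tested. The second Nfkbiz probe set had a negative deposited intensity on all 40 arrays (-133.3 to -44.44) and was not tested. All 9 tested probe sets had positive deposited intensities on all 40 arrays, and no array of theirs lay below the filter's 6.48 on the log2 scale.

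Total RNA was measured on 40 Affymetrix rat genome arrays in 10 groups: ischemia alone, or ischemia+reperfusion, each at 0, 10, 30, 60 and 120 min. Ischemia was modelled by coverslip hypoxia, per the labels, in which a coverslip over the cell layer limits the oxygen and medium that reach it. Each of the 10 groups consisted of 4 arrays, because 2 preparations of cells were each run in duplicate. The labels number the preparations first and second in every group, without saying that a number stands for the same cells throughout; the fit takes the number as a block, and calls that were lost without the block are named. The labels give no genotype, strain or drug, and do not say how long reperfusion lasted, which step the minutes count, or whether duplicates were separate cultures. The p-values therefore measure the spread between these samples, part of which may be technical.

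NF-kB is a family of transcription factors that dimerise through a shared Rel homology domain. In resting cells inhibitor proteins such as IkB-alpha, the product of Nfkbia, hold the dimers in the cytoplasm; receptors for cytokines, microbial products or danger signals activate a kinase complex that marks the inhibitor for destruction, and the freed dimers enter the nucleus. Among the genes they switch on are their own brakes, so that induction of Nfkbia and Tnfaip3 is a common transcript-level readout of the pathway in many cells, the heart muscle cell among them.

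Levels are given on the log2 scale, as log2(intensity + 16) after quantile normalization, and a change of 1 on that scale is a doubling where the intensity is well above 16. Levels of different genes come from different probes and are not set against each other. A gene was called where its adjusted p was under 0.05 in a limma fit with Benjamini-Hochberg adjustment over all 18625 probe sets of the comparison. Each change is given with its standard error (SE) and rests on n = 2 preparations per group.

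Some facts of the arrays touch what follows. The 9 cardiomyocyte markers on the array were all tested and none was called at 120 against 0 min of ischemia, while Myh7, a myosin heavy chain, rose by 0.32 ± 0.08 (adjusted p = 0.0358, limma) in ischemia+reperfusion. Of all probe sets, 12.9% were called at 120 against 0 min of ischemia and 7.17% in ischemia+reperfusion. One array stood apart from the rest. It is the first duplicate of preparation 1 at 0 min of ischemia, whose correlations over all probe sets had a median of 0.924, where the median was at least 0.974 for each other array. A pair of arrays at 120 min went against their labels by Hspa1a, a heat shock gene: in preparation 2, the ischemia duplicate 2 read 13.15 and the ischemia+reperfusion duplicate 1 read 9.75, whereas the other 3 arrays read 9.62 to 10.19 in ischemia and 13.00 to 13.25 in ischemia+reperfusion. The labels were kept. Changes at 120 min are also given without this pair for Nfkbia and Tnfaip3 in both arms. The same is done for Nfkbiz and Nfkb2 in ischemia+reperfusion and for Birc3 in ischemia. Counts of called members and of targets called higher are given likewise. Other changes at 120 min are not given without the pair.

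The promoters of 3 of the feedback genes are shown because these genes were called at 120 min and because each window holds the kB consensus, the 10-base motif that NF-kB dimers bind. The windows are RefSeq sequences (build GRCr8), read in the direction of the gene from 250 bases before to 50 after 1 annotated start. That start can lie inside the gene's annotated span. The Nfkbia span reaches 78597307 on the minus strand, and its match, at 78597094 to 78597103, lies within it. The same holds for the Nfkb1 and Nfkb2 matches below. Capitals mark every match to the consensus on either strand.
Nfkbia, chr6:78597023-78597322, minus strand: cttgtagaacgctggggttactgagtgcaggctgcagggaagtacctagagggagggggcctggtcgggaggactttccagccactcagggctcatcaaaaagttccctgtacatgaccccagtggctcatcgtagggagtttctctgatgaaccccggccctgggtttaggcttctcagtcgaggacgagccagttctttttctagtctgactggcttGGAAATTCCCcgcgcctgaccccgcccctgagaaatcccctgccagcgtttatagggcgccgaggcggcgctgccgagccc
Nfkbiz, chr11:58251471-58251770, plus strand: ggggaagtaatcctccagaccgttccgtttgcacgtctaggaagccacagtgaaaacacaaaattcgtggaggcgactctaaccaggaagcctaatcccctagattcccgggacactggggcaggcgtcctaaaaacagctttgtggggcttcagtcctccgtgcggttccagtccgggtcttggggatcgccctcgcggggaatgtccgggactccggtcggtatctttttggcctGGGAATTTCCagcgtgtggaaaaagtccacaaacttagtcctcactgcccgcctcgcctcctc
Tnfaip3, chr1:15543930-15544229, minus strand: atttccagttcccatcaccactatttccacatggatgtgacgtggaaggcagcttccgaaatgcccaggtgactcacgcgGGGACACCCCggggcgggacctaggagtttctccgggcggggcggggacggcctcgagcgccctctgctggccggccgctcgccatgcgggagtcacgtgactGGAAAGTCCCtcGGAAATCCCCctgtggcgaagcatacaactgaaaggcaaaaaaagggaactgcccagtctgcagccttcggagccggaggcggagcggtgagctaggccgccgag
Nfkbia has 1 match, at positions -31 to -22 from the start, Nfkbiz has 1, at -13 to -4, and Tnfaip3 has 3, at -170 to -161, -67 to -58 and -55 to -46. The first Tnfaip3 match reads on both strands. Of the 10 members, 9 (all but Birc3) had a window in the table and 7 of those held at least 1 match, where 2515 of all 33469 windows did (7.51%). The members were chosen as NF-kB genes, targets among them, so their share tests nothing beyond that choice.

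The matches of the other members with a tested probe set are shown to compare their letters with those above; capitals again mark the match, which here is the whole run.
Nfkb1, positions 3 to 12: GGGAATTTCC
Nfkb2, positions -20 to -11: GGGACTTTCC
Vcam1, positions -93 to -84: GGGATTTCCC
The Nfkb1 and Nfkbiz matches have the same 10 letters. The Nfkbia match meets the consensus on the opposite strand, and read on that strand it has these letters too. The Tnfaip3 match at -67 to -58 is also on the opposite strand and there reads as the Nfkb2 match does. Rel also held matches, around positions -219 and -82, but has no level here. The windows of Rela and Icam1 held no match, which says only that these letters are not in these 300 bases. Matches were defined by sequence, and binding was not measured.

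Nfkbia, which encodes IkB-alpha, rose in both arms and had the most calls of the members. The 4 arrays at 0 min of ischemia read 9.93, 9.87, 9.50 and 9.36, with the 2 arrays of preparation 1 first, and the 4 arrays at 120 min read 10.63, 10.57, 10.87 and 10.39. In ischemia+reperfusion they read 9.34, 9.37, 9.15 and 9.26 at 0 min and 10.50, 10.84, 10.45 and 10.36 at 120 min. In each arm all arrays at 120 min lay above all arrays at 0 min. In bulk RNA, more or fewer cells of a type and more or less RNA per cell cannot be told apart, here or for any later gene.

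The Nfkbia change at 120 min of ischemia was 0.95 ± 0.13 (SE, n = 2; 1.93-fold; limma adjusted p = 0.0034), 0.70 in preparation 1 and 1.20 in preparation 2. In ischemia+reperfusion it was 1.26 ± 0.13 (2.39-fold; limma adjusted p = 0.00187), 1.32 and 1.20 in the 2 preparations. Without the pair that goes against its labels the changes were 1.07 and 1.23, both called. The difference between these changes, 0.31 ± 0.18 (95% interval -0.08 to 0.70), was not called (limma adjusted p = 0.558). At 0 min the ischemia+reperfusion level differed from the ischemia level by -0.38 ± 0.13, which was not called (limma adjusted p = 0.166). Nfkbia was also called over the 5 times jointly by limma's F test, with an adjusted p of 0.018 in ischemia, lost with no block for preparation (0.0605), and 0.00861 in ischemia+reperfusion.

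In ischemia+reperfusion the Nfkbia level was higher at each later time than at the one before it in the mean. Its call came first at 30 min, with a change of 0.66 ± 0.13 (limma adjusted p = 0.0412), and at 60 min, with 0.82 ± 0.13 (limma adjusted p = 0.00957). The 4 arrays read 9.96, 9.87, 9.96 and 9.95 at 30 min and 10.11, 10.07, 10.10 and 10.10 at 60 min, all above the highest array at 0 min. The call at 30 min was lost without the pair at 120 min (adjusted p = 0.0838), which enters through the shared estimate of the spread, and without duplicate 1 of preparation 2 from the 0 min group (0.0534). The call was also lost on the deposited scale (0.144), with no filter (0.0685) and with no block for preparation (0.159).

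In ischemia, Nfkbia at 10, 30 and 60 min was 0.29, 0.28 and 0.39 above its level at 0 min, each with an SE of 0.13, and none of these was called. From 60 to 120 min it rose by 0.57 ± 0.13 (limma adjusted p = 0.0428), and the 60 min arrays, 9.73 to 10.25, all lay below those at 120 min. That call was lost in 4 of 18 alternatives: without the 120 min array of preparation 2, duplicate 1 (0.0769), on the deposited scale (0.165), with no filter (0.0573) and with no block (0.13). Over the 10 groups ordered by mean level, both 120 min groups stood at the top and overlapped each other, followed by a gap of 0.44 to the next group, ischemia+reperfusion at 60 min, whose arrays overlapped neither. The lowest group was ischemia+reperfusion at 0 min, and each of the other 8 neighbouring pairs of groups overlapped.

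**Figure D1:**
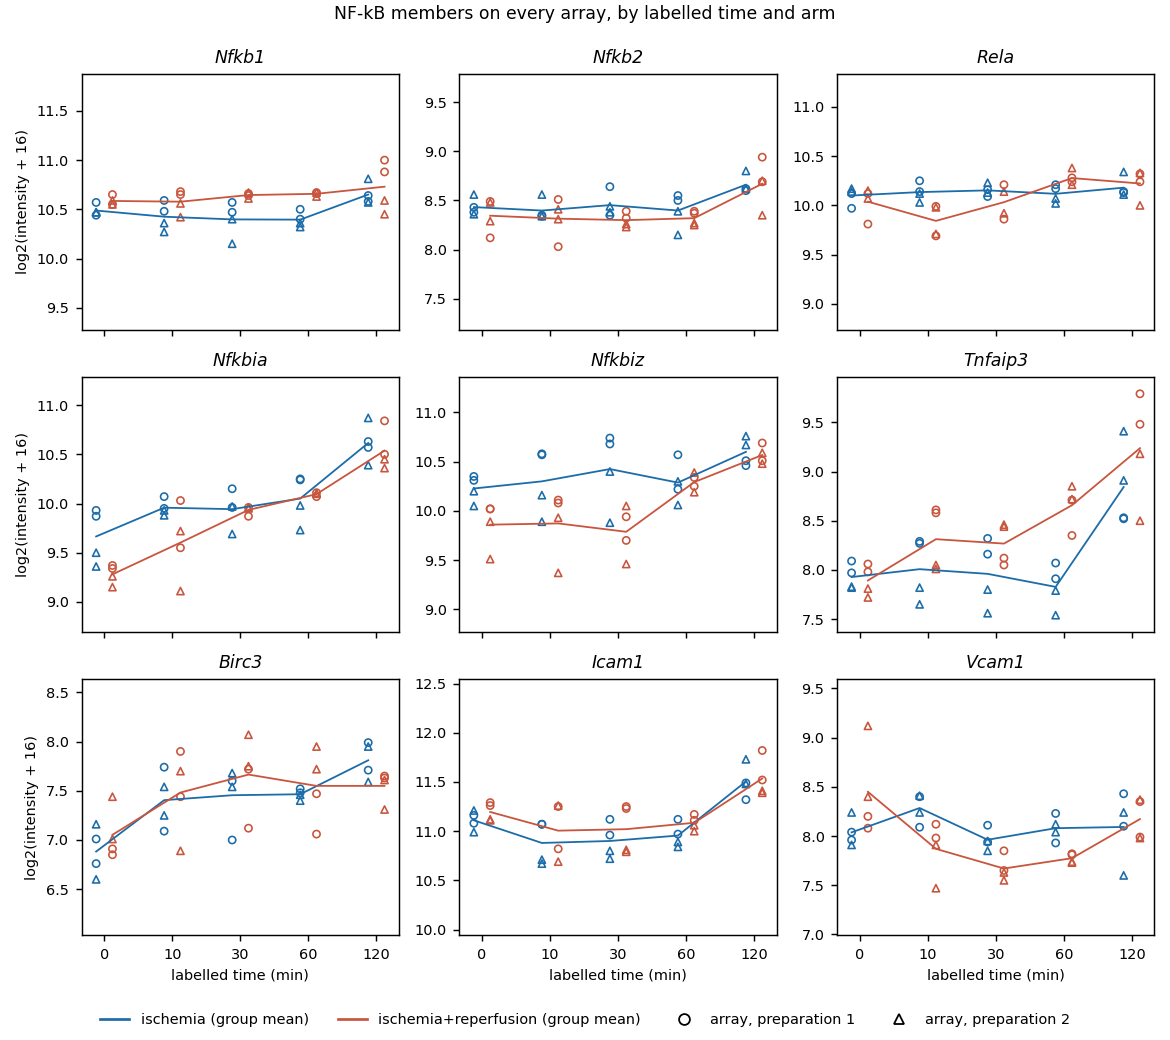
Level of each of the 9 tested members on every array, as log2(intensity + 16), against labelled time in min (equally spaced), with circles for preparation 1, triangles for preparation 2 and lines through the group means of the ischemia (blue) and ischemia+reperfusion (red) arms; every panel spans the same height in log2 units. Nfkbia at 120 min lies between 10.36 and 10.87 in both arms, above every array at 0 min (9.15 to 9.93), while Rela stays between 9.69 and 10.38 throughout.

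Tnfaip3 encodes A20, a ubiquitin-editing enzyme that shuts down signalling upstream of NF-kB. In ischemia+reperfusion its 4 arrays read 8.06, 7.98, 7.72 and 7.81 at 0 min and 9.48, 9.79, 8.50 and 9.18 at 120 min, preparation 1 first. The groups did not overlap, and the lowest array at 120 min is the one whose Hspa1a level goes against its label. The change was 1.34 ± 0.30 (2.54-fold; limma adjusted p = 0.0266), 1.61 in preparation 1 and 1.08 in preparation 2, and 1.52 without the pair (adjusted p = 0.00717). The call was lost without the ischemia+reperfusion array of preparation 2, duplicate 2, at 120 min (adjusted p = 0.057), on the deposited scale (0.0545) and with no filter (0.0503).

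In ischemia the Tnfaip3 arrays read 7.97, 8.09, 7.83 and 7.82 at 0 min and 8.53, 8.52, 8.91 and 9.41 at 120 min. These groups did not overlap either, but the preparations differed, with 0.50 in preparation 1 and 1.34 in preparation 2. The change of 0.92 ± 0.30 was not called (limma adjusted p = 0.0661), and without the pair it was 0.79 (0.0505). The arms' changes at 120 min differed by 0.43 ± 0.42 (95% interval -0.50 to 1.36; limma adjusted p = 0.739).

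The Tnfaip3 time courses of the arms lay apart at 60 min, where ischemia read 7.91, 8.07, 7.79 and 7.54 and ischemia+reperfusion read 8.71, 8.35, 8.85 and 8.72. All 4 ischemia+reperfusion arrays were the higher, in both preparations, by 0.54 and 1.12. The difference of 0.83 ± 0.30 was not called (limma adjusted p = 0.123).

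Nfkbiz encodes IkB-zeta, a nuclear IkB protein that works as a cofactor for a subset of NF-kB targets. Its arrays in ischemia+reperfusion read 10.02, 10.02, 9.89 and 9.51 at 0 min, 9.94, 9.70, 9.46 and 10.05 at 30 min and 10.51, 10.69, 10.48 and 10.59 at 120 min. The 120 min arrays lay above all arrays of those earlier times and above the 60 min arrays, 10.19 to 10.39. The change at 120 against 0 min was 0.71 ± 0.17 (1.63-fold; limma adjusted p = 0.0337), 0.57 and 0.84 in the 2 preparations, and 0.73 without the pair (0.0256). With no block for preparation the call was lost (0.0898), as it was on the deposited scale (0.11) and with no filter (0.0581).

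In ischemia Nfkbiz read 10.35, 10.31, 10.20 and 10.05 at 0 min and 10.46, 10.51, 10.67 and 10.76 at 120 min, a change of 0.37 ± 0.17 that was not called (limma adjusted p = 0.158). At 0 min the ischemia+reperfusion arrays all lay below the ischemia arrays, with differences of -0.31 and -0.42 in the 2 preparations, and the overall difference of -0.37 ± 0.17 was not called (limma adjusted p = 0.281). At 120 min the arms differed by -0.03 ± 0.17 (95% interval -0.40 to 0.34). At 30 min ischemia+reperfusion was 0.64 ± 0.17 below ischemia in the mean, a difference not called either (limma adjusted p = 0.104), with arrays that overlapped.

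Birc3 encodes cIAP2, a ubiquitin ligase that blocks cell death downstream of the tumour necrosis factor receptor. Its arrays in ischemia read 6.76, 7.01, 7.16 and 6.60 at 0 min and 7.99, 7.71, 7.59 and 7.95 at 120 min, with no overlap. The change was 0.93 ± 0.20 (1.90-fold; limma adjusted p = 0.0166), 0.96 in preparation 1 and 0.89 in preparation 2, and 0.84 without the pair (0.0212). The call held in all 17 alternatives in which the gene was tested.

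Unlike the change at 120 min, the earlier Birc3 values in ischemia rested on overlapping arrays at 10 and 30 min, with changes of 0.52 and 0.57, and on separate arrays at 60 min, with 0.58, each ± 0.20 and none called. In ischemia+reperfusion Birc3 read 6.91, 6.85, 7.44 and 7.01 at 0 min, and its changes were 0.43, 0.62, 0.50 and 0.50 at 10, 30, 60 and 120 min. None of these 4 was called, and the array at 7.44 overlapped every later group. The changes of the 2 arms at 120 min differed by -0.43 ± 0.28 (95% interval -1.05 to 0.20; limma adjusted p = 0.601).

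Icam1 encodes an adhesion receptor that leukocytes bind through their beta-2 integrins, and heart muscle cells can carry it after inflammatory stimuli. In ischemia its arrays read 11.08, 11.16, 10.99 and 11.21 at 0 min, 10.97, 11.12, 10.89 and 10.84 at 60 min and 11.32, 11.49, 11.48 and 11.73 at 120 min. The 120 min arrays lay above all arrays of both earlier times. The highest of them, 11.73, is the array whose Hspa1a level goes against its label. The change from 60 to 120 min was 0.55 ± 0.13 (1.47-fold; limma adjusted p = 0.045), and limma's F test over the 5 times of ischemia also called Icam1 (adjusted p = 0.0486). The call from 60 to 120 min was lost in 7 of 18 alternatives: on the deposited scale (0.195), with no filter (0.0601), with no block (0.123), and without 1 array, which was duplicate 1 of preparation 1 (0.0613) or duplicate 2 of preparation 2 (0.0526) at 60 min, or duplicate 2 of preparation 1 (0.072) or duplicate 1 of preparation 2 (0.0571) at 120 min. The F test's call was lost in 12 of 30 alternatives, among them with no block (0.137) and in 8 of the 20 fits that left out 1 array of the arm, among them the same 4 arrays (adjusted p up to 0.0794). Without the pair that goes against its labels the call was kept (limma F test, adjusted p = 0.0411).

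Against 0 min the Icam1 change at 120 min was 0.40 ± 0.13 in ischemia (limma adjusted p = 0.0614) and 0.34 ± 0.13 in ischemia+reperfusion (0.13), and neither was called. The call in ischemia was gained without the 0 min array of preparation 2, duplicate 2 (0.0383), or without the 120 min array of preparation 1, duplicate 1 (0.0314). In ischemia+reperfusion the arrays read 11.26, 11.29, 11.12 and 11.11 at 0 min and 11.52, 11.82, 11.39 and 11.41 at 120 min, without overlap. Ordered by mean level, both 120 min groups were the highest of the 10, with a gap of 0.31 to the next group, which overlapped neither. The other 8 neighbouring pairs overlapped.

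Vcam1 encodes the counter-receptor of the integrin alpha-4 beta-1. In ischemia its level at 120 min (8.43, 8.10, 8.24 and 7.60) overlapped that at 0 min (7.96, 8.04, 8.24 and 7.91), and the change was 0.05 ± 0.18 (95% interval -0.34 to 0.45). The array at 7.60 is the one whose Hspa1a level goes against its label. In ischemia+reperfusion it read 8.08, 8.20, 8.40 and 9.12 at 0 min and 7.81, 7.82, 7.73 and 7.74 at 60 min. The 2 groups did not overlap, but 1 array at 0 min, duplicate 2 of preparation 2, stood well above the next, at 9.12 against 8.40. The change at 60 min was -0.68 ± 0.18 (limma adjusted p = 0.0558), -0.33 in preparation 1 and -1.02 in preparation 2, and that at 30 min was -0.78 ± 0.18 (0.0795). Neither was called, while the 60 min value was called in 5 alternatives and in 3 of the fits that left out 1 array. By 120 min of ischemia+reperfusion the level was back to 7.98 to 8.37, overlapping that at 0 min.

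Of the subunits among the members, Nfkb1, Nfkb2 and Rela were tested, and none was called at any single time. Nfkb1, which encodes the p105 precursor of p50, read 10.57, 10.44, 10.47 and 10.47 at 0 min of ischemia and 10.58, 10.64, 10.57 and 10.81 at 120 min. Its change was 0.16 ± 0.10 in ischemia and 0.15 ± 0.10 in ischemia+reperfusion (95% intervals -0.06 to 0.39 and -0.08 to 0.37), neither called. From 60 to 120 min of ischemia the Nfkb1 arrays did not overlap (10.32 to 10.50 against 10.57 to 10.81), with a change of 0.26 ± 0.10 that was not called (limma adjusted p = 0.181).

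Nfkb2, which encodes the p100 precursor of p52, read 8.38, 8.43, 8.56 and 8.36 at 0 min of ischemia and 8.62, 8.60, 8.62 and 8.80 at 120 min. The 2 groups did not overlap, and the change of 0.23 ± 0.11 was not called (limma adjusted p = 0.165). In ischemia+reperfusion the change at 120 min was 0.33 ± 0.11 (0.0857), with overlapping arrays, because the array with the low Hspa1a level read 8.35 where the other 3 read 8.69 to 8.94. Without the pair it was 0.41 and was called (adjusted p = 0.021).

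Rela, which encodes the transactivating subunit p65, differed among the 5 times of ischemia+reperfusion by limma's F test (adjusted p = 0.0428), with no single time called against 0 min. Its arrays there read 9.81, 10.12, 10.07 and 10.15 at 0 min, 9.69, 9.99, 9.71 and 9.98 at 10 min and 10.24, 10.28, 10.21 and 10.38 at 60 min. The mean was thus lowest at 10 min and highest at 60 min, 0.20 below and 0.24 above the level at 0 min. The F test's call was lost in 12 of 30 alternatives: on the deposited scale (0.437), with centred medians (0.13), with no filter (0.0521), with no block (0.0543) and in 8 of the 20 fits that left out 1 array of the arm, up to 0.11 without duplicate 2 of preparation 2 at 120 min. Without the pair that goes against its labels the call was kept (limma F test, adjusted p = 0.0209). In ischemia its change at 120 min was 0.08 ± 0.08 (95% interval -0.09 to 0.26). The unnormalized deposited values had a median change of -0.22 over all tested probe sets at 120 min of ischemia. On that scale the ischemia changes of Nfkb1, Nfkb2, Rela and Vcam1 turned negative, at -0.06, -0.02, -0.14 and -0.19; the Nfkb1 change in ischemia+reperfusion turned to -0.01.

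**Figure D2:**
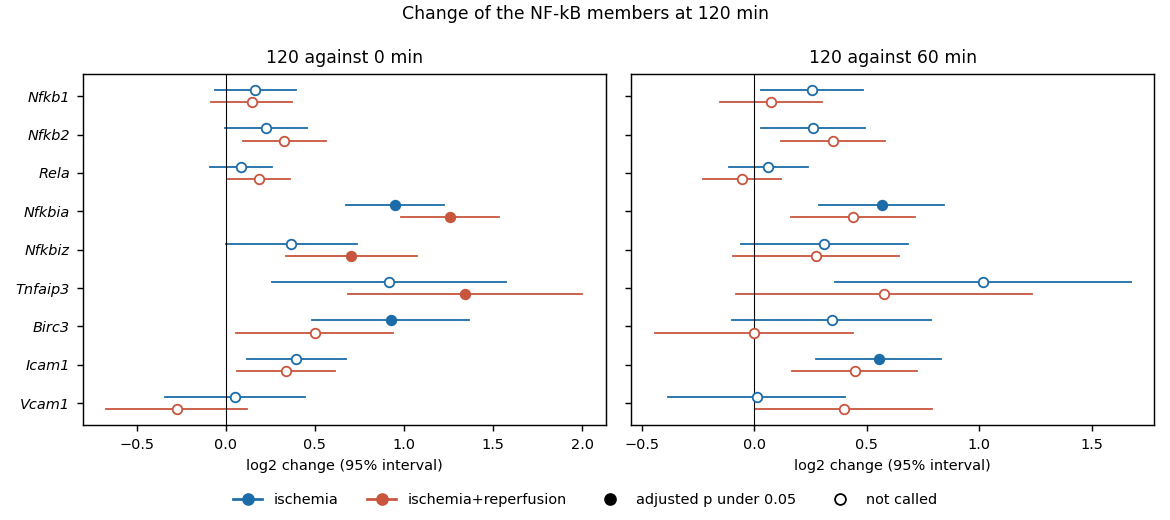
Log2 change of each of the 9 tested members at 120 min against 0 min (left) and against 60 min (right), with 95% intervals, in ischemia (blue) and ischemia+reperfusion (red); filled points had an adjusted p under 0.05. At 120 against 0 min, Nfkbia is filled in both arms (0.95 and 1.26), Birc3 in ischemia (0.93), and Nfkbiz and Tnfaip3 in ischemia+reperfusion (0.71 and 1.34).

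At 120 against 0 min of ischemia, 2 of the 9 members rose and none fell, beside 12.9% of all tested probe sets called in either direction and 6.45% called higher. The change was positive in 9 of 9 members, with a median of 0.37 where the median of all probe sets was 0.00. That count depends on the normalization: on the deposited scale the changes of Nfkb1, Nfkb2, Rela and Vcam1 were negative. There the median of all probe sets was -0.22. The Vcam1 change also turned negative when some single arrays were left out. The arrays did not overlap in 6 of the 9, against 18.9% of all probe sets. Each of these shares was above its background, but 2 calls of 9 is a small count.

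At 120 against 0 min of ischemia+reperfusion, 3 of the 9 rose and none fell, beside 7.17% of all probe sets called and 3.5% called higher. The change was positive in 8 of 9, with a median of 0.34 against -0.02 over all probe sets, and the arrays did not overlap in 4, against 14.8%. On the deposited scale, where the median of all probe sets was -0.12, the Nfkb1 change was -0.01. Nfkbia was the 1 member called in both arms. Birc3 passed in ischemia alone and Tnfaip3 and Nfkbiz in ischemia+reperfusion alone, but no difference between the arms' changes was called: 0 of the 9 members, as 0% of all probe sets, passed limma's test of the interaction at 120 min, and 0 had an unadjusted p under 0.05.

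At earlier times calls were few. In ischemia+reperfusion 1 member, Nfkbia, was called at 30 min, beside 0.784% of all probe sets (0.408% higher), and 1, the same gene, at 60 min, beside 4.69% (2.19% higher). At 60 min the arrays did not overlap in 5 members (Rela, Nfkbia, Nfkbiz, Tnfaip3 and Vcam1), against 18.3% of all probe sets. By limma no member was called at 10 min of ischemia+reperfusion (0.0376% of all probe sets), nor at 10, 30 or 60 min of ischemia (1.98%, 0.0966% and 0.129%), where 3, 2, 2 and 2 members had an unadjusted p under 0.05. The share of all probe sets at an unadjusted p under 0.05 was not counted. Those member counts therefore have no background, and the percentages are not one.

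Between 60 and 120 min of ischemia 2 members rose, Nfkbia and Icam1, beside 2.74% of all probe sets called and 1.54% called higher. The arrays did not overlap in 6 members, against 18.2%. Between the same times of ischemia+reperfusion limma called 0 members and 0% of all probe sets, with 4 members at an unadjusted p under 0.05. How many of all probe sets had such an unadjusted p was not counted, so the 4 have no background. There the arrays did not overlap in 4 members (Nfkbia, Nfkbiz, Icam1 and Vcam1), against 7.04%.

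Over the 5 times of an arm jointly, limma's F test called 2 members in ischemia (Nfkbia and Icam1), beside 4.57% of all probe sets, and 2 in ischemia+reperfusion (Nfkbia and Rela), beside 3.61%. Between the arms at equal time limma called no member: 0.333% of all probe sets were called at 0 min, 0% at 10 min, 0.532% at 30 min, 5.38% at 60 min and 0% at 120 min, and 2, 4, 2, 2 and 0 members had an unadjusted p under 0.05. The F test over the 4 interaction terms called no member either, beside 0.00537% of all probe sets, with 2 members at an unadjusted p under 0.05 (Rela and Vcam1). All percentages of this paragraph are shares called at an adjusted p under 0.05. They are no background for the counts at an unadjusted p, for which none was counted.

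Upstream of the members stand the receptors and adaptors that lead to NF-kB. Of 21 listed genes 16 were tested; at 120 min of ischemia, where 6.45% of all probe sets were called higher, 1 rose, Ltbr, the lymphotoxin beta receptor (0.33 ± 0.07, limma adjusted p = 0.0166), and 15 did not pass. At 120 min of ischemia+reperfusion none of the 16 passed, beside 7.17% of all probe sets, and the medians of the list were 0.13 and 0.11 in the 2 arms. At 60 min, where 5.38% of all probe sets were called between the arms, 3 were higher in ischemia+reperfusion than in ischemia: the adaptor Traf5 (0.75), the kinase-binding protein Tab1 (0.46) and the tumour necrosis factor receptor Tnfrsf1a (0.25).

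Of 12 listed kinases 9 were tested, and at 120 min of ischemia 1 rose: Map3k8, a kinase that couples these receptors to the ERK pathway (0.62 ± 0.14, limma adjusted p = 0.0206). There 6.45% of all probe sets were called higher. None of the 9 passed at 120 min of ischemia+reperfusion, beside 7.17% of all probe sets, and the list's median there was 0.03. At 60 min 1 was higher in ischemia+reperfusion than in ischemia, Tbk1, a kinase related to the IkB kinases (0.49 ± 0.10, limma adjusted p = 0.0246). Between the arms at that time 5.38% of all probe sets were called. Chuk and Ikbkb, which encode the core IkB kinases, were tested and not called (0.13 ± 0.06 and -0.12 ± 0.11 at 120 against 0 min of ischemia). Ikbkg had no probe set with its symbol.

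Of 22 other subunits and inhibitors 15 were tested. Of all probe sets, 12.9% were called at 120 min of ischemia (6.45% higher) and 7.17% at 120 min of ischemia+reperfusion (3.5% higher). At 120 min of ischemia 2 rose and 1 fell: Bcl3, a nuclear IkB protein (1.38 ± 0.37, limma adjusted p = 0.0322), and Nfkbil1 (0.73 ± 0.06) rose, and Tnip1, a partner of A20, fell by 0.21 ± 0.06. Already at 10, 30 and 60 min of ischemia the list's largest change was 1.37, 1.22 and 1.37. At each time 1 gene was called higher, beside 1.98%, 0.0966% and 0.129% of all probe sets called. At 0 min 1 gene of the list was called higher in ischemia+reperfusion than in ischemia (largest difference 1.26), beside 0.333%. Bcl3 is not given at those times, so its rise is not placed at 120 min. At 120 min of ischemia+reperfusion Zc3h12a, an RNase that degrades inflammatory transcripts (0.64 ± 0.11), and the subunit Relb (0.51 ± 0.14, adjusted p = 0.0496) rose, and Pdlim2, which promotes p65 degradation, fell by 0.60 ± 0.12. At 60 min Otud7b, a deubiquitinase, was higher (0.29 ± 0.07) and Zc3h12a lower (-0.58 ± 0.11) in ischemia+reperfusion than in ischemia, beside 5.38% of all probe sets called. The list's medians were 0.09 and -0.03, beside 0.00 and -0.02 over all probe sets.

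Of 42 other known NF-kB targets 32 were tested. In each arm 10 rose and 1 fell at 120 against 0 min, beside 12.9% of all probe sets called in ischemia (6.45% higher) and 7.17% in ischemia+reperfusion (3.5% higher), with medians of 0.36 in ischemia and 0.43 in ischemia+reperfusion. In ischemia the smallest adjusted p-values belonged to the chemokine Cxcl2 (2.93 ± 0.24), the cytokines Il1b (2.17 ± 0.19) and Il1a (1.68 ± 0.15), and Junb, an AP-1 subunit (1.55 ± 0.16). In ischemia+reperfusion they belonged to Il1b (2.00), Cxcl2 (2.45), Ptgs2, the inducible cyclooxygenase (1.48 ± 0.15), and Il1a (1.07). The gene that fell in both was Xiap, an inhibitor of caspases, by 0.80 and by 0.33. The counts of 10 were 10 and 9 without the pair at 120 min, 7 and 6 with no block for preparation, 6 and 8 with the filter at the 60th percentile, and 5 and 4 on the deposited scale, in alternatives added after the values were seen; the list was chosen with earlier results of these data known. No gene of the list was called between the arms at 120 min, as 0% of all probe sets were.

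Of 22 other adhesion molecules and integrin partners 16 were tested. At 120 min of ischemia 4 rose and 1 fell, beside 12.9% of all probe sets called and 6.45% called higher. Pecam1, an endothelial junction molecule (1.04 ± 0.24), Itgb2, the beta-2 integrin chain that binds Icam1 (0.48 ± 0.10), Madcam1 (0.71 ± 0.20) and Icam2 (0.51 ± 0.14) rose, and the membrane linker Ezr fell by 0.34 ± 0.06. At 120 min of ischemia+reperfusion Ezr fell by 0.30 ± 0.06 and no gene rose, beside 7.17% of all probe sets called and 3.5% called higher.

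**Figure D3:**
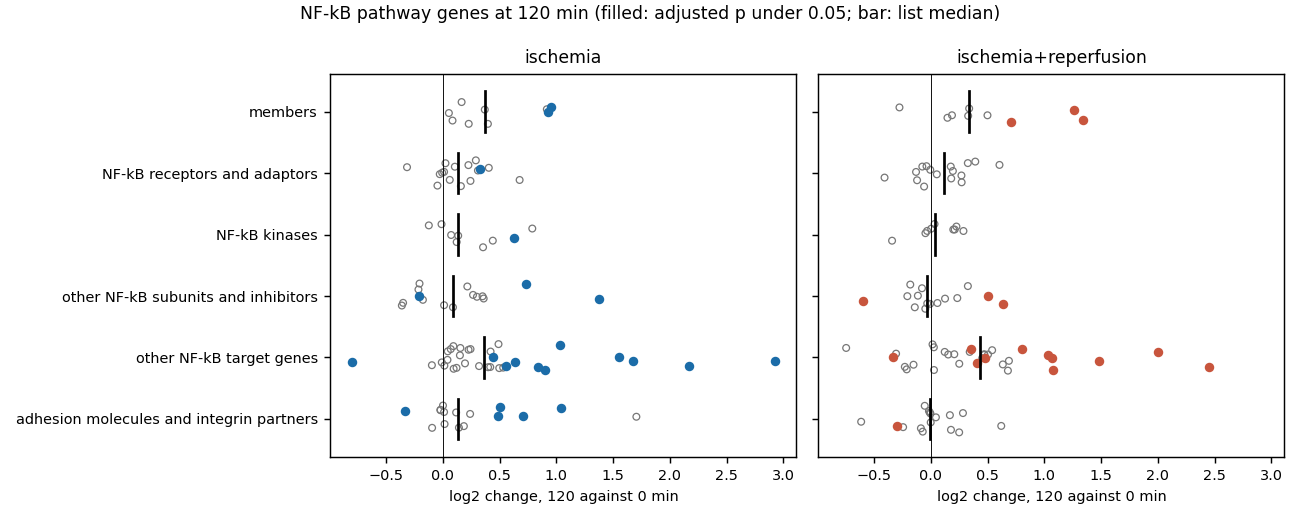
Log2 change at 120 against 0 min of the 9 members and of the tested genes of 5 pathway lists, in ischemia (left) and ischemia+reperfusion (right); each point is a gene, filled where the adjusted p was under 0.05, and bars mark the median of each list. The 32 tested targets hold 11 filled points in each arm and medians of 0.36 and 0.43. The 16 receptors and adaptors and the 9 kinases hold at most 1 filled point each in an arm. Of the 15 subunits and inhibitors 2 rose and 1 fell in each arm. Of the 16 adhesion genes 4 rose and 1 fell in ischemia, and 1 fell in ischemia+reperfusion. Of all probe sets 12.9% and 7.17% were called in the 2 arms.

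Markers of other cells moved alongside some of these values. Of all probe sets, 12.9% were called at 120 min of ischemia (6.45% higher) and 7.17% at 120 min of ischemia+reperfusion (3.5% higher). Of 10 endothelial markers 9 were on the array and 8 tested; at 120 min of ischemia 5 rose, with a median of 0.47, among them Esam (0.57), Tie1 (0.52) and Tek (0.33), and their summed intensity was 2973 to 4044 at 0 min and 4175 to 5190 at 120 min. In ischemia+reperfusion none of the 8 was called, and the sums were 3048 to 4004 and 3960 to 4722. Icam1 and Vcam1 are also made by endothelium, and the part of these cells in the members' changes was not tested.

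Of 13 macrophage and leukocyte markers, all on the array, 10 were tested: none was called at 120 min of ischemia (median 0.19), and 1 fell in ischemia+reperfusion, Mrc1, by 0.69. Their sums were 6935 to 8635 at 0 min and 8555 to 9602 at 120 min of ischemia, and 7726 to 9917 and 7919 to 10668 in ischemia+reperfusion. Of 10 fibroblast markers, all tested, 2 rose at 120 min of ischemia (Pdgfra, 0.45, and Ddr2, 0.70) and 1 fell in ischemia+reperfusion (Tcf21, by 0.61), with sums of 35937 to 41484 at 0 min and 42468 to 44816 at 120 min of ischemia. In ischemia+reperfusion the fibroblast sums overlapped, with 38290 to 47647 at 0 min and 41523 to 46411 at 120 min. Of 7 smooth muscle and pericyte markers 1 rose in each arm at 120 min, Rgs5 (0.72) in ischemia and Cspg4 (0.87) in ischemia+reperfusion. The counts of this paragraph stand beside 12.9% of all probe sets called in ischemia and 7.17% in ischemia+reperfusion. The part of these cells in the members' changes was likewise not tested.

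Over the 20 averages of a group and preparation, which share arrays, preparations and normalization, the members' levels can be set against other genes as a description. The genes most like Nfkbia were the splicing factors Hnrnpa2b1 (r = 0.92) and Snrnp70 (0.914), and Csrnp1 (0.911). Most like Nfkbiz were the chemokine Cxcl1 (0.884), the kinase Ripk2 (0.883) and Rrbp1 (0.85). Most like Tnfaip3 were Vasn (0.906), Prpf39 (0.901) and Rnf19a (0.9). For Birc3 they were Slc25a36 (0.9), Rasd1 (0.896) and Rrad (0.879), and for Icam1 they were Tle4 (0.943), Iqgap1 (0.932) and Axl (0.932).

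Among the members themselves the highest correlations over the same 20 averages were those of Nfkb1 with Tnfaip3 (r = 0.83), Nfkbia with Nfkbiz (0.76), and 3 pairs at 0.73: Tnfaip3 with Nfkbia, Tnfaip3 with Icam1, and Nfkb1 with Icam1. Icam1 and Vcam1, the 2 adhesion genes, had an r of 0.16, and Birc3 and Icam1 one of 0.06.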

How the data were processed

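The authors deposited 1 table of probe set intensity values on a linear scale, from -1725 to 17404, of which 15.8% were negative, as seen in the deposited table; the algorithm that made them is not given in the sources used here. Biotin-labelled cRNA was hybridised, per the labels' protocols. Deposited array medians ran from 101 to 171, so values were quantile-normalized, set to a floor of 0 and taken as log2(value + 16). Probe sets with a mean above the 40th percentile were tested. Duplicates were averaged, and limma 3.58.1 (R 4.3.3) fitted 10 groups over 20 values with preparation as an additive block, leaving 9 residual degrees of freedom; arrays allow no counting interval, and their number limits the precision. The labels number the preparations alike in every group but do not say that a number marks the same cells, so the pairing rests on the numbering. Deviations of same-preparation averages had a median correlation of 0.18 (-0.18 to 0.53) and exceeded 0.1 in 34 of 45 pairs of groups.

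Symbols came from the platform annotation: 20826 probe sets had 1 symbol, 436 several and 9780 none, and 99.7% of the gene identifiers were in RefSeq. All members were named, and in the other lists up to 4 called genes with the smallest adjusted p per comparison; genes most like a called member were the 3 with the highest Pearson r. The members, lists and marker genes were chosen with earlier results of these data known. Xiap, Icam2, Chuk, Ikbkb, Ikbkg and genes called between the arms at 60 min were named after their values were seen. The fit was also run on simulated data, with arrays drawn independently and without a preparation effect. That run therefore says nothing on how p-values behave where duplicates share a preparation. The alternatives were other scalings, pseudocounts and filters, no preparation block, arrays as samples, and arrays left out.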

Additional observations from a re-analysis of the deposited data

Results flagged for a closer look

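Of 90 sets of 4 arrays (9 genes in 10 groups), 5 held 1 array whose gap to the nearest of the others, divided by the whole range, was above Dixon's 95% critical value for 4 samples; chance gives about 1 in 20. Nfkb2 at 10 min of ischemia read 8.56 in preparation 2, duplicate 2, where the others read 8.34 to 8.35. The same preparation and duplicate at 120 min of ischemia, the array with the Hspa1a level of the other arm, read 8.80 for Nfkb2 (others 8.60 to 8.62) and 10.34 for Rela (others 10.11 to 10.14). Nfkbia at 30 min of ischemia+reperfusion read 9.87 in preparation 1, duplicate 2 (others 9.95 to 9.96). Birc3 at 120 min of ischemia+reperfusion read 7.31 in preparation 2, duplicate 1, the other array whose Hspa1a level goes against its label (others 7.61 to 7.65). The causes were not tested.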

How the results depend on the processing

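Nfkbia at 120 min in both arms and at 60 min of ischemia+reperfusion was called in all 18 alternatives, and Birc3 at 120 min of ischemia in all 17 that tested it. For ischemia against 0 min and for the ischemia F test, these alternatives are not all distinct. The fit without the outlying 0 min array is counted both as its own alternative and among the arrays left out. Counts of called members moved as follows, and the cause was not tested. On the deposited scale they became 0 at 30 min (from 1) and 1 at 120 min (from 3) of ischemia+reperfusion, 0 from 60 to 120 min of ischemia (from 2), 1 between the arms at 60 min (from 0; Tnfaip3), and 1 in each F test over times (from 2). With no filter, which tests more probe sets, the same values were 0, 1, 0, 0, 1 and 1. With no replicate block they were 0 at 30 min and 2 at 120 min of ischemia+reperfusion, 0 from 60 to 120 min of ischemia, and 0 and 1 in the F tests for ischemia and ischemia+reperfusion. With the filter at the 60th percentile, which leaves out Birc3, 1 was called at 120 min of ischemia (from 2) and 2 at 60 min of ischemia+reperfusion (from 1; Vcam1 joins). Centred medians gave 2 at that time and 1 in the F test for ischemia+reperfusion, and log2(value + 4) gave 1 in that for ischemia.

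With arrays as samples (duplicate correlation 0.08) 4 were called at 120 min of ischemia, 2, 3 and 5 at 30, 60 and 120 min of ischemia+reperfusion, 4 from 60 to 120 min of ischemia, 1 and 2 between the arms at 30 and 60 min, and 4 and 6 in the F tests; the duplicates then count as replicates. Without the pair at 120 min 0, 2 and 4 were called at 30, 60 and 120 min of ischemia+reperfusion, and 5 in its F test; without the outlying 0 min array of ischemia, 2 at 60 min of ischemia+reperfusion. Leaving out 1 array at a time gave 2 to 3 at 120 min of ischemia, 0 to 1, 1 to 2 and 2 to 4 at 30, 60 and 120 min of ischemia+reperfusion, 0 to 2 from 60 to 120 min of ischemia, and 1 to 2 and 1 to 4 in the F tests. The Vcam1 change at 120 min of ischemia (0.05) ran from -0.11 to 0.21 when 1 array was left out (-0.03 without the 0 min array of preparation 2, duplicate 2, or the 120 min array of preparation 1, duplicate 1). Deposited-scale reversals were -0.0609 for Nfkb1, -0.0168 for Nfkb2, -0.14 for Rela and -0.19 for Vcam1 at 120 min of ischemia, and -0.0135 for Nfkb1 in ischemia+reperfusion. The median change of all probe sets was then -0.22 and -0.12. With 2 preparations a group, the median SE of a change was 0.12.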
